A study of Mus musculus with 17 samples.

Results

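The glycolysis and glucose uptake genes described here are 10 mouse genes, namely *Slc2a1*, *Slc2a3*, *Hk2*, *Pfkp*, *Aldoa*, *Pgk1*, *Eno1*, *Pkm*, *Ldha* and *Pdk1*. They were chosen by their symbols, with earlier results of these data known. They were read from a table of 54532 genes in TPM (a relative abundance that scales reads by gene length and by the total of the library), where 11 protein-coding rows carry one of these symbols because *Aldoa* is listed under 2 identifiers. *Aldoa* stands here for ENSMUSG00000030695, and its other row is described separately. All 10 genes were among the 21871 genes tested, which had a TPM of at least 1 in at least 2 libraries. Of these, 14485 are protein-coding. The shares of all genes given below are over all genes tested, and they were not matched to the members in abundance.

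The RNA came from R1 mouse embryonic stem cells, either wild-type (WT) or *Usb1* knockout (KO), and was sequenced to follow retinoic acid (RA) differentiation in both genotypes. USB1 is the exonuclease that trims the end of U6 small nuclear RNA. The 6 groups were WT and KO cells at day 0, in self-renewal without RA, and at day 1 and day 3 of RA treatment, with 2 libraries for WT cells at day 0 and 3 for each of the other groups, 17 in all. The KO libraries came from 1 CRISPR/Cas9 line, KO-1, so the knockout and the clone cannot be told apart, and this line still makes a mutant *Usb1* mRNA. *Usb1* stood at 40.0 and 37.1 TPM in the WT libraries at day 0 and 15.5, 15.2 and 17.9 in the KO libraries. At day 1 the values were 56.9, 48.6 and 51.9 in WT and 20.7, 21.4 and 18.5 in KO libraries, and at day 3 33.7, 32 and 35.8 and 14.7, 17.2 and 20.4, so every KO library lay below every WT library of its day.

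Glycolysis splits glucose into pyruvate and yields ATP without oxygen. Glucose enters through the GLUT transporters, is trapped by hexokinase, is committed to the pathway by phosphofructokinase, and leaves it as pyruvate, which lactate dehydrogenase can reduce to lactate. Pyruvate dehydrogenase kinase, an enzyme of the mitochondrial matrix, switches off the pyruvate dehydrogenase complex and so holds back the conversion of pyruvate to acetyl-CoA. Many of these genes are textbook targets of the hypoxia-inducible factors (HIF) and of Myc, and embryonic stem cells are known for a high rate of glycolysis that is remodelled when they differentiate.

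Between 15404379 and 17300189 reads lay on genes in each library, and the member with the fewest reads in any library, *Pfkp*, still had 479. 3 libraries stood apart by few genes of a single read. WT replicates 1 and 2 at day 0 had 239 and 1352 of them and KO replicate 1 at day 3 had 1224, against 2150 to 2467 in the other 14. Results are given without each of these where that changed a call. Both WT libraries at day 0 are among these 3, so every comparison with that group rests on such libraries alone on its side. Leaving out WT replicate 1 at day 0 still leaves the other of them. WT replicate 1 at day 0 also had only 17090 genes above 0 TPM, against 22314 in replicate 2. The 7 embryonic stem cell markers checked summed to 5826 to 5937 TPM in WT and 5538 to 5986 in KO libraries at day 0, and to 317 to 362 and 520.2 to 595 at day 3. The 7 primitive endoderm markers summed to 1551 to 1863 TPM in WT and 619 to 740.3 in KO libraries at day 3, so marker levels differed between days and genotypes. In bulk RNA, fewer cells of a type and less RNA per cell cannot be told apart. The 8 fibroblast markers summed to 7.92 to 10.7 TPM in WT and 9.83 to 13.6 in KO libraries at day 0, with *Dcn*, *Lum* and *Postn* at 0 in all of them, and to 58.8 to 72.7 and 95.3 to 108 at day 3. At day 1, WT and KO libraries did not overlap in the sums of the embryonic stem cell markers (2942 to 3028 and 3709 to 3774 TPM), the primitive endoderm markers (147 to 169 and 42.3 to 54.7) or 6 RA targets (1133 to 1190.2 and 575 to 617). The 4 trophoblast markers stood apart at day 3 (39 to 52.7 and 85.7 to 95.4). WT and KO libraries also stood apart at day 0 in RA targets (32.5 to 36.8 and 15.3 to 17.5) and primitive endoderm markers (145 to 169 and 103 to 126). So they did at day 0 in trophoblast markers (22.1 to 22.6 and 33.5 to 35.2) and 4 neural markers (14.3 to 19 and 21 to 24.2). The sums of embryonic stem cell, fibroblast and mesoderm markers overlapped at day 0. The part of these markers in the results below was not tested. The median difference over all genes tested, on the log2(TPM + 1) scale, was 0.17 in WT cells from day 0 to day 1, 0.10 from day 0 to day 3, and -0.13 between KO and WT cells at day 1. Members are read against these shifts.

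Among the members as listed, *Pkm* was the most abundant per length in WT cells at day 0, with 1721 ± 29.2 (SD, n = 2) TPM, although *Eno1* summed with its near-identical copies lies above it. *Aldoa*, *Ldha*, *Eno1*, *Slc2a1*, *Slc2a3* and *Pgk1* followed with group means of 1159, 968, 946, 770.2, 754 and 709 TPM. *Hk2* was lower at 236 ± 10.6 (SD, n = 2), and the regulatory *Pdk1* and *Pfkp* were lowest at 83.3 ± 1.06 (SD, n = 2) and 45.3 ± 3.69 (SD, n = 2). The members fell into 3 shapes over the days of RA: both transporters stood highest at day 1, *Hk2*, *Pfkp* and in WT cells *Pdk1* stood lower at each later day, and the enzymes from *Aldoa* to *Ldha* stood lowest at day 3, although *Pgk1* only in WT cells.

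**Figure D1:**
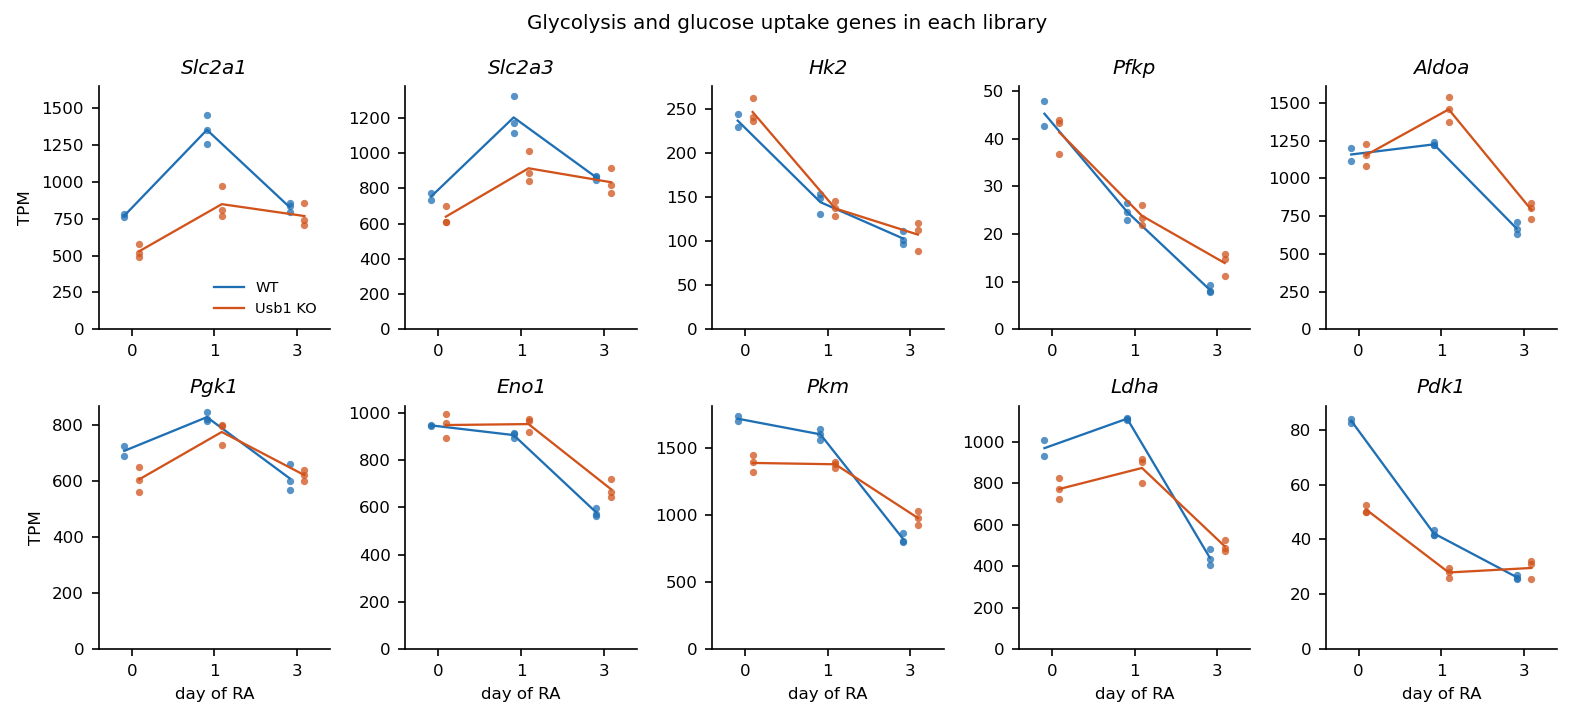
TPM of each member (vertical axes, from 0) in every library at day 0, 1 and 3 of RA (horizontal axes), with WT libraries in blue, *Usb1* KO libraries in orange and lines through the group means. The KO lines for *Slc2a1*, *Slc2a3*, *Pgk1*, *Pkm*, *Ldha* and *Pdk1* start below the WT lines at day 0, and the genotypes lie close together or cross by day 3.

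Short stretches upstream of several members hold the core letters that HIF and Myc proteins are known to bind, and they are shown because these factors are the textbook regulators of the family. The 250 bases before the RefSeq start (GRCm38.p6) were searched on both strands for ACGTG and GCGTG, both forms of the HIF core, and for CACGTG, the E-box that Myc binds, which holds ACGTG on each strand. RefSeq promoters were at hand for 9 members, not for *Slc2a3*. ACGTG was found in 4 of 9 member windows (*Slc2a1*, *Hk2*, *Pgk1*, *Ldha*) against 16.5% of 27025 windows of all genes. GCGTG was in 4 of 9 (*Slc2a1*, *Pfkp*, *Eno1*, *Pdk1*) against 28.3%, and CACGTG in 1 of 9 (*Ldha*) against 6.04%. The lines below run 5′ to 3′ along the coding strand of the gene, with the core in capitals, which reads CACGT where it lies on the other strand. The *Ldha* lines are chr7:46845649-46845675 and chr7:46845746-46845772, *Pgk1* is chrX:106186939-106186965, *Slc2a1* is chr4:119108698-119108724, *Hk2* is chr6:82774491-82774517 and *Pdk1* is chr2:71873135-71873161.
Ldha, 144 bases before the start: tgtcgcagcacACGTGgagccactctt
Ldha, 47 bases before the start: gcccagcctacACGTGggttcccgcac
Pgk1, 150 bases before the start: cgtcgtgcaggACGTGacaaatggaag
Slc2a1, 36 bases before the start: tcccgccccggACGTGctccccaggcc
Hk2, 52 bases before the start: atgagcacatcCACGTcactgtccggg
Pdk1, 78 bases before the start: cgcctacatggGCGTGtctttaaccag
The RefSeq windows of *Slc2a1*, *Pfkp* and *Pkm* run into the GENCODE gene, and the *Slc2a1* core shown lies across the GENCODE start. Those of *Aldoa* and *Ldha* lie wholly inside the GENCODE gene, so the *Ldha* distances count from a RefSeq start within it. A match of these letters is a description of the window, and binding was not measured.

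The transporter genes stood highest in WT cells at day 1. *Slc2a1* (ENSMUSG00000028645, chromosome 4: 119108711-119137983, + strand, GRCm38) encodes GLUT1, the basal glucose transporter. Its TPM was 760.1 and 780.3 in the WT libraries at day 0 and 577, 490.0 and 519.7 in the KO libraries. At day 1 it was 1450.2, 1354 and 1254 in WT and 974, 766 and 806 in KO libraries, and at day 3 837, 854 and 794 and 738, 855 and 710.2. The WT libraries at day 1 lay above all others, the KO libraries at day 0 lay below all others, and the WT and KO libraries overlapped at day 3. In limma with Benjamini-Hochberg adjustment over all genes tested, *Slc2a1* was lower in KO cells at day 0 (log2 difference -0.54 ± 0.10 (SE), adjusted p = 0.0049) and at day 1 (-0.68 ± 0.09 (SE), adjusted p = 0.00024), which is 1.46-fold and 1.60-fold. The difference at day 0 missed the threshold when those 2 groups were fitted alone (-0.54, adjusted p = 0.077), and at day 3 it was -0.11 ± 0.09 (SE), adjusted p = 0.61. From day 0 to day 1 *Slc2a1* rose 1.75-fold in WT (0.81 ± 0.10 (SE), adjusted p = 3.0e-05) and 1.60-fold in KO cells (0.68 ± 0.09 (SE), adjusted p = 7.7e-05). It then fell 1.63-fold in WT cells to day 3 (-0.70 ± 0.09 (SE), adjusted p = 2.1e-05), while the KO difference was -0.14 ± 0.09 (SE), adjusted p = 0.25.

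*Slc2a3* (ENSMUSG00000003153, chromosome 6: 122727809-122801640, - strand) encodes GLUT3, a transporter of high affinity. Its TPM was 775 and 732 in WT and 701, 611 and 608 in KO libraries at day 0. It was 1325, 1174 and 1113 in WT and 1015, 890.0 and 839.8 in KO libraries at day 1, and 873, 847 and 868 and 774, 915 and 817 at day 3. As for *Slc2a1*, the WT libraries at day 1 lay above and the KO libraries at day 0 below all others, and the groups between them overlapped in part. *Slc2a3* was lower in KO cells at day 1 (log2 difference -0.40 ± 0.09 (SE), adjusted p = 0.0063), and this missed the threshold after scaling the libraries to an equal median (-0.18, adjusted p = 0.17). The KO libraries also lay below the WT libraries at day 0, where the difference was -0.24 ± 0.10 (SE), adjusted p = 0.13. The rise to day 1 was 1.59-fold in WT (0.67 ± 0.10 (SE), adjusted p = 7.5e-05) and 1.43-fold in KO cells (0.51 ± 0.09 (SE), adjusted p = 0.00041), and *Slc2a3* fell from day 1 to day 3 in WT cells (-0.48 ± 0.09 (SE), adjusted p = 0.00036).

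The genes of the early steps, *Hk2* and *Pfkp*, went the other way. *Hk2* (ENSMUSG00000000628, chromosome 6: 82725025-82774454, - strand) encodes hexokinase 2, which phosphorylates glucose. Its TPM was 229 and 244 in WT and 236, 241 and 262 in KO libraries at day 0. It was 153, 131 and 148 in WT and 145, 137 and 128 in KO libraries at day 1, and 96.2, 101 and 112 and 89.2, 120.4 and 112 at day 3. The 3 days did not overlap, at 229 to 262, 128 to 153 and 89.2 to 120.4 TPM, and the genotypes overlapped at every day. *Hk2* fell 2.29-fold from day 0 to day 3 in WT (-1.19 ± 0.11 (SE), adjusted p = 3.7e-07) and 2.30-fold in KO cells (-1.20 ± 0.10 (SE), adjusted p = 9.6e-08). The genotype difference was 0.06 ± 0.11 (SE), adjusted p = 0.78, at day 0. It was -0.07 ± 0.10 (SE), adjusted p = 0.71, at day 1, and 0.05 ± 0.10 (SE), adjusted p = 0.87, at day 3.

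*Pfkp* (ENSMUSG00000021196, chromosome 13: 6579768-6648777, - strand) encodes the platelet-type phosphofructokinase. Its TPM was 42.6 and 47.9 in WT and 43.3, 36.9 and 43.9 in KO libraries at day 0. It was 26.5, 22.9 and 24.6 in WT and 26.2, 23.3 and 22 in KO libraries at day 1, and 7.72, 7.93 and 9.21 and 11.1, 15.9 and 14.8 at day 3. The genotypes overlapped at day 0 and day 1, and every KO library lay above every WT library at day 3. *Pfkp* fell 4.98-fold from day 0 to day 3 in WT cells (-2.32 ± 0.14 (SE), adjusted p = 2.7e-09), the largest fall of any member, and 2.86-fold in KO cells (-1.52 ± 0.12 (SE), adjusted p = 7.5e-08). At day 3 it was 1.59-fold higher in KO cells (0.67 ± 0.12 (SE), adjusted p = 0.0036), and a fit on the groups of that day alone gave 0.67, adjusted p = 0.11. Of the exonic bases of *Pfkp*, 748 are shared with *Pitrm1* on the opposite strand (mean TPM 80.5), and the strand used in counting is not given in the sources used here.

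The middle of the pathway stood lower at day 3. *Aldoa* (chromosome 7: 126795234-126800751, - strand) encodes aldolase A, which cleaves fructose bisphosphate. Its TPM was 1205 and 1113 in WT and 1081, 1154 and 1231 in KO libraries at day 0. It was 1219, 1219 and 1240.4 in WT and 1461, 1374 and 1541 in KO libraries at day 1, and 662, 713 and 631 and 835, 807 and 733 at day 3. The KO libraries at day 1 lay above all others, the WT libraries at day 3 lay below all others, and the KO libraries at day 3 lay just above these. *Aldoa* fell from day 1 to day 3 by 1.83-fold in WT (-0.88 ± 0.07 (SE), adjusted p = 7.4e-08) and 1.84-fold in KO cells (-0.88 ± 0.07 (SE), adjusted p = 6.6e-08). It was higher in KO cells at day 1 (0.25 ± 0.07 (SE), adjusted p = 0.021) and at day 3 (0.24 ± 0.07 (SE), adjusted p = 0.042). The difference at day 1 missed the threshold without any 1 of the WT libraries of that day (adjusted p = 0.070, 0.058 and 0.0504) or without KO replicate 1 (0.058) or 3 (0.21, adjusted p = 0.10). The difference at day 3 missed it without any 1 of 9 libraries, with an adjusted p from 0.058 without WT replicate 1 at day 1 to 0.15 without WT replicate 3 at day 3, and with equal medians (0.26, adjusted p = 0.27).

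The other *Aldoa* row (ENSMUSG00000114515, chromosome 7: 126800790-126809108) lies next to the first on the same strand and stood between 2.42 and 16.6 TPM. Of the comparisons, it passed the test only between day 3 and day 0 in KO cells, with group means of 6.61 and 14.5 TPM (log2 difference -1.17 ± 0.42 (SE), adjusted p = 0.031).

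*Pgk1* (ENSMUSG00000062070, chromosome X: 106187100-106203699, + strand) encodes phosphoglycerate kinase, the first ATP-yielding enzyme. Its TPM was 726 and 691 in WT and 562, 605 and 652 in KO libraries at day 0. It was 824, 817 and 847 in WT and 800.4, 730.3 and 798 in KO libraries at day 1, and 599, 662 and 570.3 and 639, 624 and 602 at day 3. The libraries of day 1 lay above those of both other days in each genotype, and the KO libraries at day 0 and all libraries at day 3 overlapped. *Pgk1* rose from day 0 to day 1 in WT (0.23 ± 0.07 (SE), adjusted p = 0.022) and KO cells (0.36 ± 0.06 (SE), adjusted p = 0.00072), and fell from day 1 to day 3 in WT (-0.44 ± 0.06 (SE), adjusted p = 4.7e-05) and KO cells (-0.32 ± 0.06 (SE), adjusted p = 0.00086). The WT rise was close to the median shift of all genes, and it missed the threshold with equal medians (0.04, adjusted p = 0.83), without WT replicate 2 at day 0 (0.19, adjusted p = 0.12) or without WT replicate 3 at day 1 (0.21, adjusted p = 0.063). From day 0 to day 3 it fell in WT cells (-0.22 ± 0.07 (SE), adjusted p = 0.020), but not without WT replicate 1 at day 0 (-0.18, adjusted p = 0.13), WT replicate 1 at day 3 (-0.20, adjusted p = 0.053) or WT replicate 3 at day 3 (-0.17, adjusted p = 0.078). The genotype difference at day 0 was -0.23 ± 0.07 (SE), adjusted p = 0.055, and it passed without KO replicate 3 at day 0 (-0.28, adjusted p = 0.038), without WT replicate 2 at day 3 (0.041) or without WT replicate 3 at day 3 (0.049). It also passed with a filter at a TPM of 5 (0.043), with protein-coding genes alone (0.039) and with quantile normalisation (-0.32, adjusted p = 0.0055).

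*Eno1* (ENSMUSG00000063524, chromosome 4: 150236721-150248879, + strand) encodes enolase 1. Its TPM was 943 and 949 in WT and 894, 955 and 994 in KO libraries at day 0. It was 895, 908 and 912 in WT and 963, 920.1 and 972 in KO libraries at day 1, and 561, 599 and 573 and 719.8, 666 and 642 at day 3. The KO libraries of day 3 lay above the WT libraries of that day, and both lay below every library of day 0 and day 1. *Eno1* fell from day 1 to day 3 in WT (-0.65 ± 0.05 (SE), adjusted p = 1.1e-07) and KO cells (-0.49 ± 0.05 (SE), adjusted p = 1.8e-06). It was 1.17-fold higher in KO cells at day 3 (0.22 ± 0.05 (SE), adjusted p = 0.015), but not without KO replicate 1 (0.18, adjusted p = 0.057) or WT replicate 1 of that day (0.20, adjusted p = 0.074). *Eno1* is uncertain as a single gene, because copies with at least 95% identity, chiefly *Eno1b* (99.5% over 1736 bases, mean TPM 1103) and *Gm4735* (mean TPM 225), hold 58.7% to 63.5% of their summed TPM. With the copies added, the difference at day 3 was 0.14, adjusted p = 0.28.

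At the end of the pathway *Pkm*, *Ldha* and *Pdk1* were all lower in KO cells at day 0 and day 1. *Pkm* (ENSMUSG00000032294, chromosome 9: 59656368-59679375, + strand) encodes the muscle-type pyruvate kinases PKM1 and PKM2, which yield pyruvate and ATP. Its TPM was 1741 and 1700.3 in WT and 1322, 1397 and 1452 in KO libraries at day 0. It was 1644, 1561 and 1607 in WT and 1399.7, 1356 and 1385 in KO libraries at day 1, and 798, 864 and 807 and 982, 1030.0 and 925 at day 3. The KO libraries lay below the WT libraries at day 0 and day 1 and above them at day 3, with no overlap at any day. *Pkm* was lower in KO cells at day 0 (-0.31 ± 0.06 (SE), adjusted p = 0.0042) and day 1 (-0.22 ± 0.05 (SE), adjusted p = 0.011) and 1.19-fold higher at day 3 (0.25 ± 0.05 (SE), adjusted p = 0.0085). With equal medians all 3 missed the threshold, at -0.20, adjusted p = 0.27, 0.00, adjusted p = 0.99 and 0.27, adjusted p = 0.14, and the difference at day 1 also missed it without WT replicate 1 of that day (-0.20, adjusted p = 0.054). From day 0 to day 3 *Pkm* fell 2.09-fold in WT (-1.06 ± 0.06 (SE), adjusted p = 1.1e-09) and 1.42-fold in KO cells (-0.51 ± 0.05 (SE), adjusted p = 9.6e-07). Its copy *Gm6560* held 3.14% to 3.68% of their summed TPM, and 767 exonic bases are shared with *AC160637.1* on the same strand (mean TPM 38.3).

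*Ldha* (ENSMUSG00000063229, chromosome 7: 46841475-46855627, + strand) encodes the A subunit of lactate dehydrogenase. Its TPM was 1007 and 929 in WT and 721, 769.8 and 823 in KO libraries at day 0. It was 1109.8, 1115 and 1106 in WT and 899.8, 802 and 916 in KO libraries at day 1, and 433, 484 and 404 and 487, 527 and 473 at day 3. The KO libraries lay below the WT libraries at day 0 and day 1, and the genotypes overlapped at day 3, where all libraries lay below those of the earlier days. *Ldha* was 1.26-fold lower in KO cells at day 0 (-0.33 ± 0.08 (SE), adjusted p = 0.020) and 1.27-fold lower at day 1 (-0.35 ± 0.07 (SE), adjusted p = 0.0052). With equal medians these were -0.22, adjusted p = 0.31 and -0.13, adjusted p = 0.52, and the difference at day 0 also missed the threshold without KO replicate 1 (-0.28, adjusted p = 0.062), KO replicate 2 (-0.33, adjusted p = 0.054) or WT replicate 1 of day 0 (-0.27, adjusted p = 0.16). From day 1 to day 3 *Ldha* fell 2.52-fold in WT (-1.34 ± 0.07 (SE), adjusted p = 2.1e-09) and 1.76-fold in KO cells (-0.81 ± 0.07 (SE), adjusted p = 4.0e-07). The differences from day 0 to day 1 were 0.20 ± 0.08, adjusted p = 0.072 in WT and 0.18 ± 0.07, adjusted p = 0.090 in KO cells, and they passed without WT replicate 2 at day 3 (0.049) and without KO replicate 2 at day 1 (0.24, adjusted p = 0.041), respectively.

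*Pdk1* (ENSMUSG00000006494, chromosome 2: 71873224-71903858, + strand) encodes pyruvate dehydrogenase kinase 1. Its TPM was 82.6 and 84.1 in WT and 50.1, 49.9 and 52.7 in KO libraries at day 0. It was 43.4, 41.5 and 41.7 in WT and 29.7, 28.3 and 25.8 in KO libraries at day 1, and 25.7, 26 and 27.1 and 25.7, 32.2 and 30.9 at day 3. The order ran from WT at day 0 through KO at day 0 to WT at day 1 with no overlap, and the KO libraries at day 1 and all libraries at day 3 overlapped below them. *Pdk1* was 1.62-fold lower in KO cells at day 0 (-0.70 ± 0.09 (SE), adjusted p = 0.00018), the largest genotype difference of any member on that day, and 1.49-fold lower at day 1 (-0.58 ± 0.08 (SE), adjusted p = 0.00016). Both passed the test under every alternative tried, equal medians included. It fell 1.95-fold from day 0 to day 1 in WT (-0.97 ± 0.09 (SE), adjusted p = 7.7e-07) and 1.80-fold in KO cells (-0.84 ± 0.08 (SE), adjusted p = 1.2e-06). From day 1 to day 3 it fell further in WT cells (-0.66 ± 0.08 (SE), adjusted p = 4.8e-06), while the KO difference was 0.08 ± 0.08 (SE), adjusted p = 0.46. Without KO replicate 1 at day 3, a library with few genes of a single read, that KO difference became 0.17, adjusted p = 0.041, and the genotype difference at day 3 became 0.26, adjusted p = 0.030 from 0.16, adjusted p = 0.27.

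The comparison of KO with WT cells asked whether loss of *Usb1* alters these genes in self-renewal and under RA. At day 0, 4 of 10 members passed the test at an adjusted p under 0.05 in limma, all lower in KO cells (*Slc2a1*, *Pkm*, *Ldha*, *Pdk1*), against 11.9% of all genes in either direction and 6.8% lower. At day 1, 5 members were lower (*Slc2a3* besides the same 4) and *Aldoa* was higher, against 17.3% of all genes and 13.6% lower. With equal medians, *Pkm* and *Ldha* missed the threshold at day 0 (adjusted p = 0.27 and 0.31). On that scale *Slc2a3*, *Pkm* and *Ldha* missed it at day 1 (adjusted p = 0.17, 0.99 and 0.52). At day 3 no member was lower and 4 were higher (*Pfkp*, *Aldoa*, *Eno1*, *Pkm*), against 7.52% of all genes and 3.96% higher. With the groups of day 3 fitted alone, none of these 4 passed (adjusted p = 0.11, 0.20, 0.15 and 0.14). With equal medians, *Aldoa*, *Eno1* and *Pkm* missed the threshold at day 3 (adjusted p = 0.27, 0.22 and 0.14). No member reached a 2-fold difference at any day, a size that 3.05%, 2.22% and 1.29% of all genes reached while passing the test at day 0, 1 and 3. At an unadjusted p under 0.05 there were 6, 6 and 5 members, against 27.4%, 29.6% and 19.1% of all genes. The median log2 difference of the members was -0.23 at day 0, -0.16 at day 1 and 0.17 at day 3, beside 0.00, -0.13 and 0.00 over all genes tested. The genotypes did not overlap for 6, 8 and 4 members, against 36.6%, 39.8% and 22% of all genes.

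**Figure D2:**
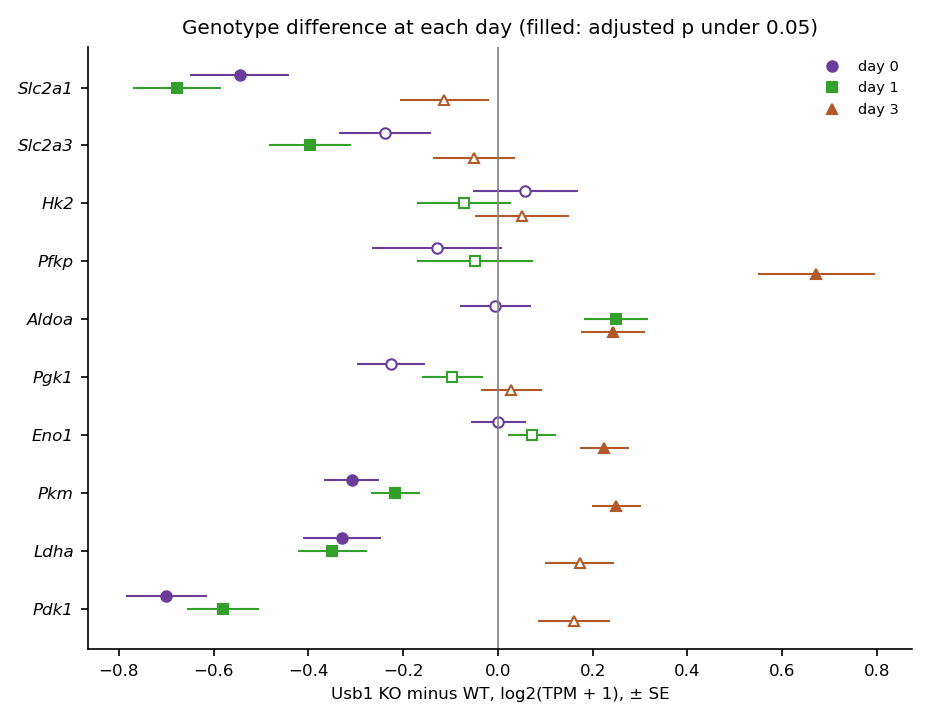
Difference between *Usb1* KO and WT cells in log2(TPM + 1) (horizontal axis) for each member at day 0 (circles), day 1 (squares) and day 3 (triangles), with bars of 1 SE and filled symbols for an adjusted p under 0.05. *Slc2a1* and *Pdk1* lie furthest to the left at day 0 and day 1, and *Pfkp* at day 3 lies furthest to the right at 0.67.

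The libraries of day 0 and day 1 describe the early response to RA. In WT cells, 3 of 10 members rose (*Slc2a1*, *Slc2a3*, *Pgk1*) and 3 fell (*Hk2*, *Pfkp*, *Pdk1*), against 38.0% of all genes that passed, 25.5% rising and 12.5% falling. In KO cells, 4 rose (*Aldoa* besides these) and the same 3 fell, against 27.7%, 16% rising and 11.7% falling. No member moved by 2-fold in either genotype at this step, against 13.9% of all genes in WT and 6.95% in KO cells. With the libraries scaled to an equal median, 2 members of the WT comparison passed 2-fold, *Hk2* (-0.90, adjusted p = 3.0e-06) and *Pdk1* (-1.15, adjusted p = 1.5e-08), and in KO cells the rises of *Aldoa* (0.26, adjusted p = 0.15) and *Pgk1* (0.28, adjusted p = 0.092) missed the threshold.

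The later step, from day 1 to day 3, was a fall of the whole group in WT cells. All 10 members fell, against 43.8% of all genes that passed in either direction and 24.3% that fell, and 2 of them by at least 2-fold (*Pfkp* -1.47 and *Ldha* -1.34), against 15.2% in either direction and 7.54% that fell. In KO cells, 7 fell and none rose, against 44.9% of all genes in either direction and 19.4% that fell. None of them reached 2-fold, against 15.3% in either direction and 5.73% that fell. The 3 that did not pass in KO cells were *Slc2a1*, *Slc2a3* and *Pdk1*, and with equal medians the transporters did (-0.34, adjusted p = 0.015 and -0.33, adjusted p = 0.0041). The median log2 difference of the members was -0.68 in WT and -0.43 in KO cells, beside -0.07 and 0.04 over all genes tested.

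Over the full course, from day 0 to day 3, 8 of 10 members fell in WT cells and none rose, against 52.1% of all genes that passed and 22.5% that fell. In 5 of them the fall was at least 2-fold (*Hk2*, *Pfkp*, *Pkm*, *Ldha*, *Pdk1*), against 25.8% of all genes in either direction and 9.68% that fell. KO cells had 7 that fell and 2 that rose, both transporters (*Slc2a1* 0.54 ± 0.09 (SE), adjusted p = 0.00020 and *Slc2a3* 0.38 ± 0.09 (SE), adjusted p = 0.0016), against 51.5% of all genes, of which 21.8% fell and 29.7% rose. *Hk2* and *Pfkp* fell by at least 2-fold in KO cells, against 21.9% in either direction and 8.04% that fell. In WT cells the transporters differed by 0.10 ± 0.10, adjusted p = 0.44 for *Slc2a1* and 0.20 ± 0.10, adjusted p = 0.11 for *Slc2a3*. The rise of *Slc2a3* in KO cells missed the threshold with equal medians (0.11, adjusted p = 0.29).

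**Figure D3:**
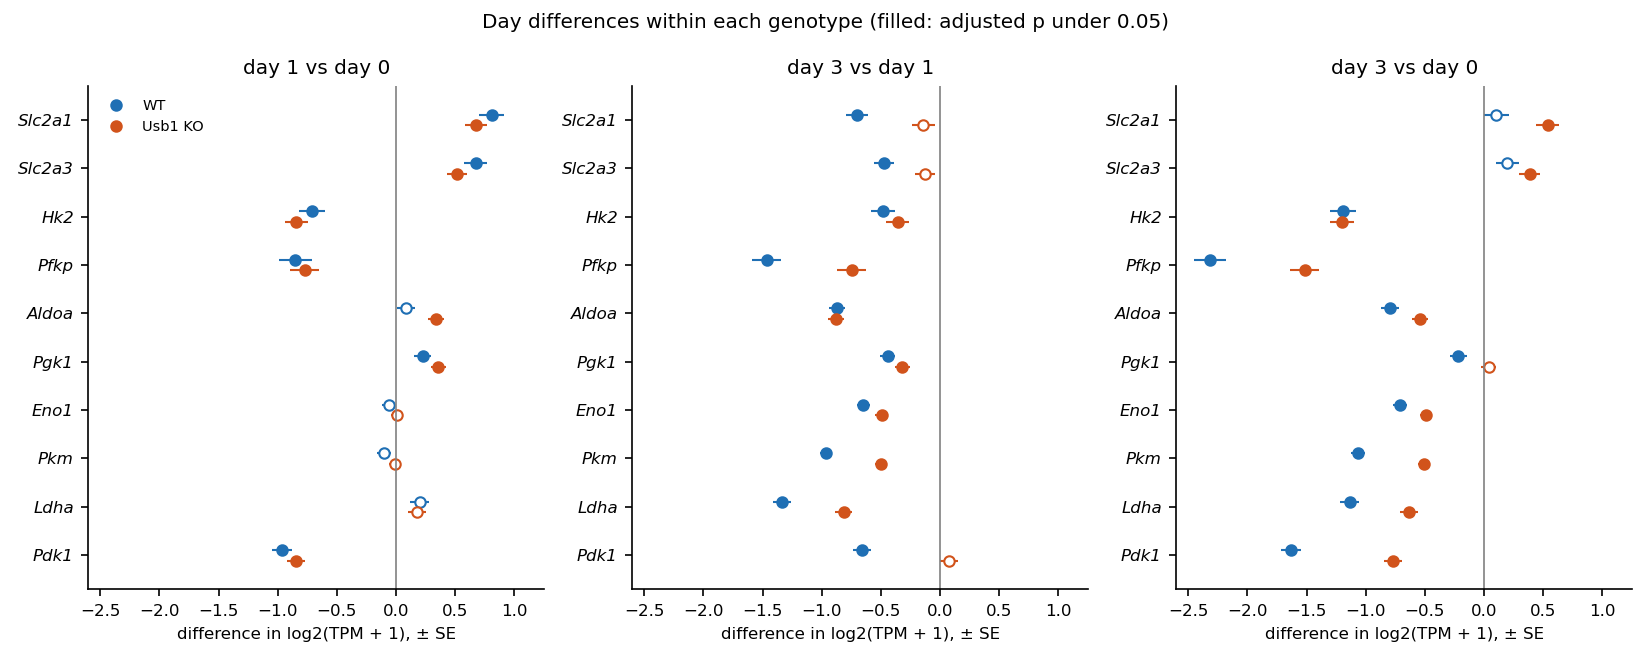
Difference in log2(TPM + 1) between days (horizontal axes) within WT (blue) and *Usb1* KO cells (orange) for each member, with bars of 1 SE and filled symbols for an adjusted p under 0.05. The WT symbols of *Pfkp*, *Pkm*, *Ldha* and *Pdk1* lie to the left of the KO symbols in the day 3 panels, by 0.80, 0.56, 0.50 and 0.86 from day 0 to day 3.

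Whether the response to RA differed between the genotypes was tested as an interaction, the KO change minus the WT change. No member passed for day 1 against day 0, where 2.23% of all genes passed and 0.86% with 2-fold, and 1 member, *Aldoa*, had an unadjusted p under 0.05, against 18.1% of all genes. For day 3 against day 1, 5 of 10 members passed, each with a smaller fall or no fall in KO cells, against 7.61% of all genes and 5.93% in that direction. They were *Pdk1* (0.74 ± 0.11 (SE), adjusted p = 0.00084), *Pfkp* (0.72 ± 0.17 (SE), adjusted p = 0.022), *Slc2a1* (0.56 ± 0.13 (SE), adjusted p = 0.020), *Ldha* (0.52 ± 0.10 (SE), adjusted p = 0.0075) and *Pkm* (0.47 ± 0.07 (SE), adjusted p = 0.0015). For day 3 against day 0, 4 of 10 passed, against 6.15% of all genes and 3.53% in that direction, namely *Pdk1* (0.86 ± 0.11 (SE), adjusted p = 0.00075), *Pfkp* (0.80 ± 0.18 (SE), adjusted p = 0.021), *Pkm* (0.56 ± 0.08 (SE), adjusted p = 0.0011) and *Ldha* (0.50 ± 0.11 (SE), adjusted p = 0.018). None reached 2-fold, against 2.25% and 2.42% of all genes. The median of the members was 0.41 and 0.34, beside 0.13 and 0.01 over all genes tested. The interactions of *Pdk1* passed under every alternative. These comparisons share libraries, so they are not independent of the genotype differences above.

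Single libraries and scaling bore on the other interactions. For *Pfkp*, the difference for day 3 against day 1 missed the threshold without KO replicate 3 at day 1 (0.67, adjusted p = 0.063), KO replicate 2 (0.63, adjusted p = 0.055) or 3 at day 3 (0.67, adjusted p = 0.054), WT replicate 1 at day 1 (0.67, adjusted p = 0.064), or WT replicate 1 (0.68, adjusted p = 0.060) or 2 at day 3 (0.69, adjusted p = 0.057). That of *Pfkp* for day 3 against day 0 missed it without KO replicate 2 at day 0 (0.72, adjusted p = 0.052) or WT replicate 1 at day 3 (0.76, adjusted p = 0.054). For *Slc2a1*, day 3 against day 1 missed it without KO replicate 3 (0.53, adjusted p = 0.056) or WT replicate 1 at day 1 (0.51, adjusted p = 0.059). *Ldha* for day 3 against day 0 missed it without WT replicate 1 at day 0 (0.44, adjusted p = 0.080). With equal medians, *Slc2a1* (0.37, adjusted p = 0.18), *Pkm* (0.27, adjusted p = 0.33) and *Ldha* (0.33, adjusted p = 0.33) for day 3 against day 1 missed it, as did *Pkm* (0.47, adjusted p = 0.086) and *Ldha* (0.41, adjusted p = 0.20) for day 3 against day 0. With the groups compared alone, *Pfkp* (0.80, adjusted p = 0.081) and *Ldha* (0.50, adjusted p = 0.070) for day 3 against day 0 missed it.

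Several members are 1 isozyme of a family, and their share of the summed TPM of the family describes the RNA of that form. It does not measure the enzyme. *Hk2* made up 88.1% ± 0.385 (SD, n = 2) of hexokinase TPM in WT and 87.1% ± 1.20 (SD, n = 3) in KO cells at day 0. At day 3 the share was 63% ± 1.83 (SD, n = 3) in WT and 73.3% ± 2.29 (SD, n = 3) in KO cells. *Hkdc1*, a hexokinase domain protein, held 17.6% ± 0.942 (SD, n = 3) in WT and 4.84% ± 0.383 (SD, n = 3) in KO cells at day 3, where 0.899 and 0.0830 TPM had been listed at day 0. *Hkdc1* reached 28.7 ± 0.305 (SD, n = 3) TPM in WT and 7.06 ± 0.961 (SD, n = 3) in KO cells, a log2 difference of -1.89 ± 0.16 (SE), adjusted p = 8.6e-06.

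*Pfkp* was the minor phosphofructokinase, with 21% ± 2.52 (SD, n = 2) of the family at day 0 and 4.82% ± 0.491 (SD, n = 3) at day 3 in WT cells. In KO cells it held 24.3% ± 1.49 (SD, n = 3) and 7.62% ± 1.32 (SD, n = 3). *Pfkl*, the liver type, held the largest share in every group, from 56% ± 2.27 (SD, n = 3) in KO cells at day 0 to 67.6% ± 1.74 (SD, n = 3) in WT cells at day 3. The libraries of the genotypes did not overlap in the *Pfkp* share at day 1 and day 3.

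*Ldha* makes the A subunit of lactate dehydrogenase and *Ldhb* the B subunit, and the *Ldha* share was lower at each later day. It was 87.3% ± 0.779 (SD, n = 2) in WT and 87.8% ± 0.588 (SD, n = 3) in KO cells at day 0, and 79.5% ± 0.102 (SD, n = 3) and 83.2% ± 0.446 (SD, n = 3) at day 1. At day 3 it was 66.3% ± 0.531 (SD, n = 3) in WT and 61.1% ± 2.54 (SD, n = 3) in KO cells. *Ldhb* itself stood at 141 ± 1.88 (SD, n = 2), 287 ± 2.03 (SD, n = 3) and 223 ± 15.1 (SD, n = 3) TPM in WT cells and at 107 ± 1.55 (SD, n = 3), 176 ± 7.78 (SD, n = 3) and 315 ± 29.2 (SD, n = 3) in KO cells at day 0, 1 and 3. It was lower in KO cells at day 1 (-0.70 ± 0.06 (SE), adjusted p = 5.5e-06) and higher at day 3 (0.49 ± 0.06 (SE), adjusted p = 0.00020).

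Among the pyruvate dehydrogenase kinases, *Pdk1* held 61.1% ± 2.04 (SD, n = 2) in WT and 49.9% ± 0.692 (SD, n = 3) in KO cells at day 0. At day 1 it held 37.4% ± 1.30 (SD, n = 3) in WT and 28.2% ± 1.30 (SD, n = 3) in KO cells, and at day 3 29.4% ± 0.302 (SD, n = 3) and 30.1% ± 1.48 (SD, n = 3). The genotypes did not overlap at day 0 and day 1 and overlapped at day 3. *Pdk3* was the most abundant of the family from day 1 on, with 53.5 TPM in WT and 55.1 in KO cells at day 1. *Slc2a3* held 46.4% to 47.7% of the TPM of both main transporters in WT libraries at day 1 and 53.9% to 55.5% in KO libraries at day 0, the lowest and highest groups. *Aldoa* held 98.5% to 98.9% of the aldolases in WT cells at day 3, its lowest group. *Eno1* held 88.5% to 90.0% of the sum of *Eno1*, *Eno2* and *Eno3* there, against 95.1% to 95.5% at day 0, with the copy *Eno1b* left out of the sum. The shares were not tested.

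**Figure D4:**
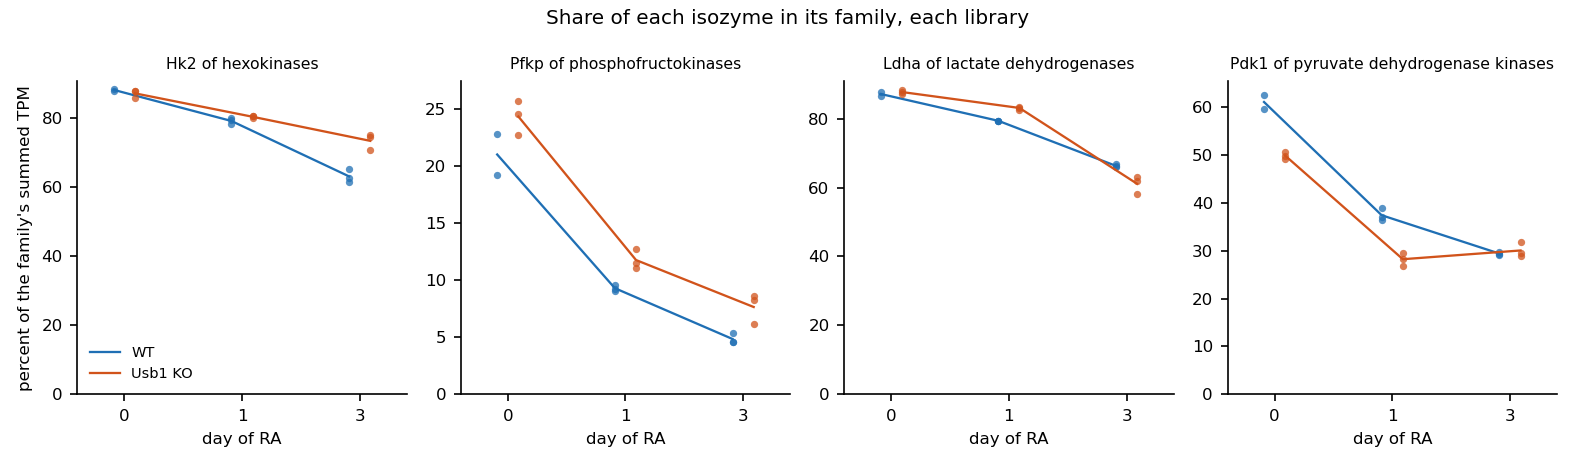
Percent of the summed TPM of its family (vertical axes, from 0) held by *Hk2*, *Pfkp*, *Ldha* and *Pdk1* in every library at day 0, 1 and 3 of RA (horizontal axes), with WT libraries in blue, *Usb1* KO libraries in orange and lines through the group means. All 4 shares are lower at day 3 than at day 0 in both genotypes, and the *Hk2* share at day 3 is lower in WT libraries (61.4% to 65%) than in KO libraries (70.7% to 74.9%).

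The rest of the pathway was followed through 94 genes in 7 lists, of which 86 were tested. The 9 other enzymes of the glycolytic steps were all tested. From day 1 to day 3 in WT cells, 6 of them fell and 1 rose, against 24.3% and 19.5% of all genes. Their median log2 difference was -0.46 beside -0.07. *Pgam1*, phosphoglycerate mutase, fell from 1263 TPM at day 0 to 610.5 at day 3 in WT cells (-1.05 ± 0.06 (SE), adjusted p = 2.7e-09) and from 1245 to 700.3 in KO cells (-0.83 ± 0.06 (SE), adjusted p = 9.2e-09). *Tpi1*, triose phosphate isomerase, was lower in KO cells at day 0 (-0.30 ± 0.08 (SE), adjusted p = 0.025) and day 1 (-0.24 ± 0.07 (SE), adjusted p = 0.033), as was *Gpi1*, glucose phosphate isomerase, at day 1 (-0.20 ± 0.06 (SE), adjusted p = 0.025), and *Gpi1* was higher at day 3 (0.25 ± 0.06 (SE), adjusted p = 0.014). *Tpi1* and *Gpi1* differed between the genotypes in the response from day 1 to day 3 (0.38 ± 0.10 (SE), adjusted p = 0.034 and 0.45 ± 0.08 (SE), adjusted p = 0.0034). *Gapdh*, glyceraldehyde phosphate dehydrogenase, was listed at 22.2 to 103 TPM in the group means, the lowest and highest in KO cells at day 3 and day 0. It is 1 of the 6 that fell from day 1 to day 3 in WT cells, with a wide error (-1.18 ± 0.44 (SE), adjusted p = 0.044). Near-identical copies were searched for the members only, not for *Gapdh*.

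Of the 9 other glucose transporter genes, 6 were tested, and their group means stayed at or below 32.2 TPM, that of *Slc2a8* in WT cells at day 1. In WT cells 5 of the 6 rose from day 0 to day 1 and none fell, against 25.5% and 12.5% of all genes, the largest being *Slc2a4* (GLUT4), from 1.98 to 8.82 TPM (1.82 ± 0.26 (SE), adjusted p = 7.9e-05). *Slc2a5*, the fructose transporter, was lower in KO cells at day 0 (-0.75 ± 0.22 (SE), adjusted p = 0.038) and day 1 (-0.94 ± 0.19 (SE), adjusted p = 0.0045). Of the 18 paralogues of members, 14 were tested, and 10 rose and none fell from day 0 to day 1 in WT cells, against 25.5% of all genes that rose. In KO against WT cells at day 1, 6 of 14 were lower and none higher, against 13.6% and 3.74% of all genes, *Ldhb* and *Eno3* (-0.65 ± 0.08 (SE), adjusted p = 0.00011) among them.

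Of the 18 regulators of glycolysis, 10 were lower and 3 higher in KO cells at day 1, against 13.6% and 3.74% of all genes. Their median was -0.43, beside -0.13 over all genes tested. *Epas1*, which encodes HIF-2α, stood at 75.7 ± 13.5 (SD, n = 2), 47.3 ± 5.74 (SD, n = 3) and 32.9 ± 5.84 (SD, n = 3) TPM in WT cells and 27.3 ± 2.02 (SD, n = 3), 25.3 ± 2.44 (SD, n = 3) and 13.5 ± 2.34 (SD, n = 3) in KO cells at day 0, 1 and 3. It was lower in KO cells at day 0 (-1.43 ± 0.16 (SE), adjusted p = 0.00011) and day 3 (-1.22 ± 0.15 (SE), adjusted p = 0.00013). *Mycn* was higher in KO cells at day 0 (0.87 ± 0.11 (SE), adjusted p = 0.00018) and day 1 (0.99 ± 0.09 (SE), adjusted p = 1.0e-05), while *Myc* was lower at day 0 (-0.55 ± 0.09 (SE), adjusted p = 0.0011). *Mycn* fell from day 0 to day 1 in WT (-2.24 ± 0.11 (SE), adjusted p = 1.2e-09) and KO cells (-2.12 ± 0.09 (SE), adjusted p = 9.1e-10). The genotypes differed in the response of both from day 0 to day 3 in limma. The KO change minus the WT change was -0.94 ± 0.14 (SE), adjusted p = 0.0017 for *Mycn* and 0.84 ± 0.11 (SE), adjusted p = 0.00091 for *Myc*. *Egln3*, a prolyl hydroxylase that marks HIF for decay, rose at day 1 from 8.60 to 62.5 TPM in WT (2.79 ± 0.26 (SE), adjusted p = 1.4e-06) and from 10.1 to 38.5 in KO cells (1.86 ± 0.23 (SE), adjusted p = 2.9e-05). *Pfkfb3*, which makes the activator of phosphofructokinase, was lower in KO cells at day 1 (-1.18 ± 0.21 (SE), adjusted p = 0.0018) and differed in the response from day 1 to day 3 (1.56 ± 0.30 (SE), adjusted p = 0.0057).

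Hypoxia targets outside glycolysis, 12 in all, stood mostly higher at day 1 than at day 0. In WT cells 9 of 12 rose and none fell (median 1.13), against 25.5% of all genes that rose and a median of 0.17. In KO cells 10 rose and 1 fell (median 0.92), against 16% that rose, 11.7% that fell and a median of 0.02. In KO against WT cells, 4 of 12 were lower at day 0 and 8 of 12 at day 1, with none higher, against 6.8% and 13.6% of all genes that were lower. *Bnip3*, a mitophagy receptor, stood at 12.5, 54.8 and 30.4 TPM in WT and 4.62, 21.8 and 34.1 in KO cells at day 0, 1 and 3. It was lower in KO cells at day 0 (-1.30 ± 0.19 (SE), adjusted p = 0.00068) and day 1 (-1.30 ± 0.17 (SE), adjusted p = 0.00013), and its response from day 1 to day 3 differed by 1.46 ± 0.24 (SE), adjusted p = 0.0018. *P4ha1*, a collagen prolyl hydroxylase subunit, rose from 24.5 to 155 TPM over the course in WT (2.61 ± 0.11 (SE), adjusted p = 1.1e-10) and from 19.7 to 99.9 in KO cells (2.28 ± 0.10 (SE), adjusted p = 1.2e-10), and was lower in KO cells at day 3 (-0.63 ± 0.10 (SE), adjusted p = 0.0016).

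Of 13 genes tested for the fate of pyruvate and lactate, 7 fell and 3 rose from day 0 to day 3 in WT cells, and 7 fell and 3 rose in KO cells. Of all genes, 22.5% fell and 29.6% rose in WT cells, and 21.8% fell and 29.7% rose in KO cells. *Bsg*, the chaperone of the lactate transporters, rose from 512 to 1484 TPM in WT (1.53 ± 0.08 (SE), adjusted p = 9.6e-10) and from 583 to 1368 in KO cells (1.23 ± 0.07 (SE), adjusted p = 2.8e-09). *Slc16a3*, the lactate exporter MCT4, stood highest at day 1, as the glucose transporters did, with 104 ± 12.4 (SD, n = 3) TPM in WT and 62.3 ± 9.17 (SD, n = 3) in KO cells, a log2 difference of -0.73 ± 0.14 (SE), adjusted p = 0.0025. Genotype calls in this list were 1, 4 and 0 of 13 at day 0, 1 and 3, against 11.9%, 17.3% and 7.52% of all genes. Of the 14 pentose phosphate and glycogen genes, 7 rose and 4 fell from day 0 to day 3 in WT cells, a step at which 29.6% and 22.5% of all genes did, led by *Rpia*, ribose phosphate isomerase, from 3.08 to 23.3 TPM (2.58 ± 0.14 (SE), adjusted p = 1.4e-09), and 4 were higher and none lower in KO against WT cells at day 0, against 5.08% of all genes that were higher, led by *Gbe1*, the glycogen branching enzyme (1.00 ± 0.25 (SE), adjusted p = 0.021).

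Over the 17 libraries, the closest pairs in Pearson's r of log2(TPM + 1) were *Slc2a1* with *Slc2a3* (r = 0.97), *Pkm* with *Ldha* (r = 0.97), *Aldoa* with *Eno1* (r = 0.96) and *Eno1* with *Pkm* (r = 0.94). Of 45 pairs, 12 were above 0.8 and 8 below 0, the lowest being *Slc2a3* with *Hk2* (r = -0.46), and each pair below 0 held a transporter. Among 9234 other protein-coding genes with a mean TPM of at least 10, the most alike were *Vsig10* for *Slc2a1* (r = 0.96), *Skil* for *Slc2a3* (0.95), *Rrp1b* for *Hk2* (0.98), *Ildr1* for *Pfkp* (0.99) and *Dppa5a* for *Aldoa* (0.98). *Gabarapl2* was the most alike for *Pgk1* (0.92), *Rbmxl2* for *Eno1* (0.99), *Zcchc24* for *Pkm* (0.98), *Pla2g1b* for *Ldha* (0.98) and *Sall4* for *Pdk1* (0.98). The libraries form 6 groups, so these values describe the group means for the most part.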

How the data were processed

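RNA-seq was read from 17 libraries of R1 cells in 6 groups of genotype and day. The deposited TPM of 54532 genes were made by the authors from libraries built with the NEBNext Ultra RNA kit on total RNA, and the submitters' processing notes name HISAT2 2.1.0, StringTie 1.3.6 and the build GRCm38.p6. The members and all gene lists were chosen with earlier results of these data known.

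TPM were tested as log2(TPM + 1) with limma 3.58.1 in R 4.3.3, with 6 group means, all 17 libraries, an empirical Bayes variance with trend and Benjamini-Hochberg adjustment over 21871 genes (TPM of at least 1 in at least 2 libraries) in each of 12 comparisons. A gene passed at an adjusted p under 0.05. The pseudocount understates changes of low genes, and fold changes are on that scale. Replicates are biological per the study's methods. TPM were turned back into reads with GENCODE M21 exon lengths (54495 identifiers found, 53921 with the same symbol), and 95.9% to 96.7% of values came within 0.01 of a whole read. Copies were GENCODE transcripts of at least 95% identity over at least 300 bases. Named genes were all members, up to 3 genes of each other list and comparison with the largest change among those that passed, *Usb1*, and the most alike gene of each member. Shares and correlations were not tested. Alternatives were the pseudocount (0.1), the filter (none, TPM of 5), protein-coding genes alone, scaling to an equal median of the tested genes, quantile normalisation, a robust variance, voom on recovered reads, a replicate block, the groups compared alone, 1.5-fold or no fold threshold, each library left out, and, chosen after seeing the data, summed copies and WT replicate 1 at day 0 and KO replicate 1 at day 3 left out together. Tables and plots were made in Python 3.11.15.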

Additional observations from a re-analysis of the deposited data

Results flagged for a closer look

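The response to RA differed between the genotypes, by the limma interaction test with Benjamini-Hochberg adjustment, for 5 members. Each value is the KO change minus the WT change in log2(TPM + 1), and all are above 0. From day 1 to day 3 it was 0.56 for *Slc2a1*, 0.72 for *Pfkp*, 0.47 for *Pkm*, 0.52 for *Ldha* and 0.74 for *Pdk1*. From day 0 to day 3 it was 0.80 for *Pfkp*, 0.56 for *Pkm*, 0.50 for *Ldha* and 0.86 for *Pdk1*. *Slc2a1*, *Ldha* and *Pdk1* were lower in KO cells at day 0 and day 1. At day 3 their genotype differences were -0.11, 0.17 and 0.16 (adjusted p = 0.61, 0.21 and 0.27 in limma). *Pfkp* and *Pkm* were higher in KO cells at day 3 (0.67 and 0.25). The values from day 0 rest on 2 WT libraries with few genes of a single read. Only the interactions of *Pdk1* passed under every alternative, and each of the others missed the threshold under at least 1. WT and KO libraries also stood apart at day 3 in the summed TPM of primitive endoderm (1551 to 1863 and 619 to 740.3), embryonic stem cell (317 to 362 and 520.2 to 595) and trophoblast markers (39 to 52.7 and 85.7 to 95.4) and RA targets (821 to 959 and 549 to 596), and their part in these values was not tested.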

How the results depend on the processing

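Of 120 member results, 70 passed the threshold, and 46 of these passed it under all 29 alternatives. Of the 50 that did not pass, 35 missed it under every alternative. The counts of members that passed with at least 2-fold kept their value without any single library: 0 in the genotype comparisons, the interactions, the step from day 0 to day 1 and the KO step from day 1 to day 3, 2 to 2 for WT day 1 to 3, 5 to 5 for WT day 0 to 3 and 2 to 2 for KO day 0 to 3. Where WT day 0 was left with 1 library, it was assumed to vary like the other groups.

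Without a fold threshold, 4, 6 and 4 members were called between the genotypes at day 0, 1 and 3. The WT steps from day 0 to 1, day 1 to 3 and day 0 to 3 gave 6, 10 and 8, the KO steps 7, 7 and 9, and the interactions for day 3 against day 1 and day 0 gave 5 and 4. With 1.5-fold there was 1 at each day between the genotypes, 5 and 7 for the first 2 WT steps, 4, 3 and 4 for the KO steps, and 2 and 2 for those interactions. Equal medians moved the median over all genes between the genotypes from 0.00 to 0.11 at day 0 and from -0.13 to 0.08 at day 1, and from 0.03 to -0.25 for KO day 0 to 3. They gave 2 for the WT step to day 1 and 2 for the KO step from day 1 to 3. Without WT replicate 1 at day 0 and KO replicate 1 at day 3, 1 interaction for day 3 against day 0 reached 2-fold, *Pfkp* at 1.03, adjusted p = 0.0067.

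Quantile normalisation turned *Eno1* between the genotypes at day 0 from 0.00 to -0.16, adjusted p = 0.049, and took *Aldoa* at day 1 to 0.09, adjusted p = 0.30. With it *Pgk1* passed between the genotypes at day 0 (-0.32, adjusted p = 0.0055) and day 1 (-0.23, adjusted p = 0.013). The interactions of *Aldoa*, *Pgk1* and *Eno1* for day 3 against day 0 also passed (adjusted p = 0.017, 0.036 and 0.0068). So did that of *Eno1* for day 3 against day 1 (adjusted p = 0.048). The cause was not tested. The groups compared alone, with fewer libraries for the variance, left -0.54, adjusted p = 0.077 for *Slc2a1*, -0.31, adjusted p = 0.13 for *Pkm* and -0.33, adjusted p = 0.14 for *Ldha* at day 0. At day 3 no member passed the threshold between the genotypes in that fit. Reads recovered from TPM and tested with voom took *Pkm* at day 1 to -0.11, adjusted p = 0.16. Replicate numbers did not pair the samples (correlations of same-numbered deviations from -0.051 to 0.124 over 8 pairs). With a replicate block the counts of calls were those of the fit without it, 0, 0 and 0 between the genotypes, while *Aldoa* at day 3 gave 0.24, adjusted p = 0.071 and *Slc2a3* from day 0 to day 3 in WT cells 0.23, adjusted p = 0.048.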
